A study of Arabidopsis thaliana with 24 samples.

Results

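Genes of iron storage and iron handling in Arabidopsis thaliana, 10 in all, were followed through seedlings of different ploidy: the ferritin genes FER1 (AT5G01600), FER2 (AT3G11050), FER3 (AT3G56090) and FER4 (AT2G40300), the iron-sulfur protein gene NEET (AT5G51720), the vacuolar iron transporter-like genes VTL1 (AT1G21140), VTL2 (AT1G76800) and VTL5 (AT3G25190), the metal transporter gene YSL1 (AT4G24120) and the vacuolar iron transporter gene VIT1 (AT2G01770). They were selected by gene identifier, 10 genes of the 24900 identifiers listed in either of 2 tables. The set was chosen by function and on the basis of mean counts and ploidy changes already known from both tables, so the calls given here describe these genes and are not independent evidence about them. All 10 were listed for Col-0 and 9 for Ler, where VIT1 was not listed.

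The tables compare diploid (2x) with tetraploid (4x) seedlings, 2 weeks old, of the natural strains (ecotypes) Col-0 and Ler, by RNA-seq of 8 libraries. Each ecotype at each ploidy has 2 libraries. Seeds of all groups were first kept cold in the soil, at 4 °C for 2 days, and the plants then grew at 22 °C. The labels name day lengths of 16 h and 8 h without assigning them to libraries, and the labels name no mutation and no treatment that sets the groups apart other than ploidy. Whether the 2 libraries of a group came from separately grown plants is not stated, so the p-values cover only library-to-library spread, possibly technical. The other 16 libraries of the series, chromatin immunoprecipitations, were not analysed here.

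Ferritins are shells of many subunits that hold iron as a mineral inside plastids, and they keep free iron from driving the formation of reactive oxygen. In plants their transcripts rise when iron is plentiful and fall when it is scarce, and FER1, FER3 and FER4 are the ferritins of leaves while FER2 belongs to seeds. Vacuoles are the other large iron store of the plant cell, filled by VIT1 and its relatives, and YSL1 moves iron bound to nicotianamine between tissues.

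The values per library are not part of these tables. Each gene has a mean normalised read count over the 4 libraries of its table and a log2 fold change between ploidies with its standard error (written ±). From these the mean count of each ploidy was implied, and no value of a single library can be given. Positive changes were read as higher in the tetraploid. The headers do not state this, and it was taken from FLC, known to be raised in Col-0 tetraploids, which the authors' deposited table gives as 2.63 ± 0.17 on the log2 scale. For Ler it rests on the same file layout. All directions depend on this reading. The mean counts of a table sum to 22343366 for Col-0 and 22138532 for Ler. Size factors lay between 0.92 and 1.14 in Col-0 libraries and between 0.92 and 1.08 in Ler libraries. In bulk seedlings, fewer cells of a type and less RNA per cell cannot be told apart. The leaf markers were high in both tables (RBCS1A at mean counts of 570856 in Col-0 and 619046 in Ler, from the authors' deposited tables). Root markers were measured too, with 6 of 7 listed in each table, but most were scarce. A mean count of at least 10 was reached by 3 of them in Col-0 and 2 in Ler. PYK10 stood at mean counts of 2927 in Col-0 and 2802 in Ler in the authors' deposited tables. COBL9 stood at 1.42 and 1.92, and MYB36 at 4.14 and 1.52, in the authors' deposited tables.

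**Figure D1:**
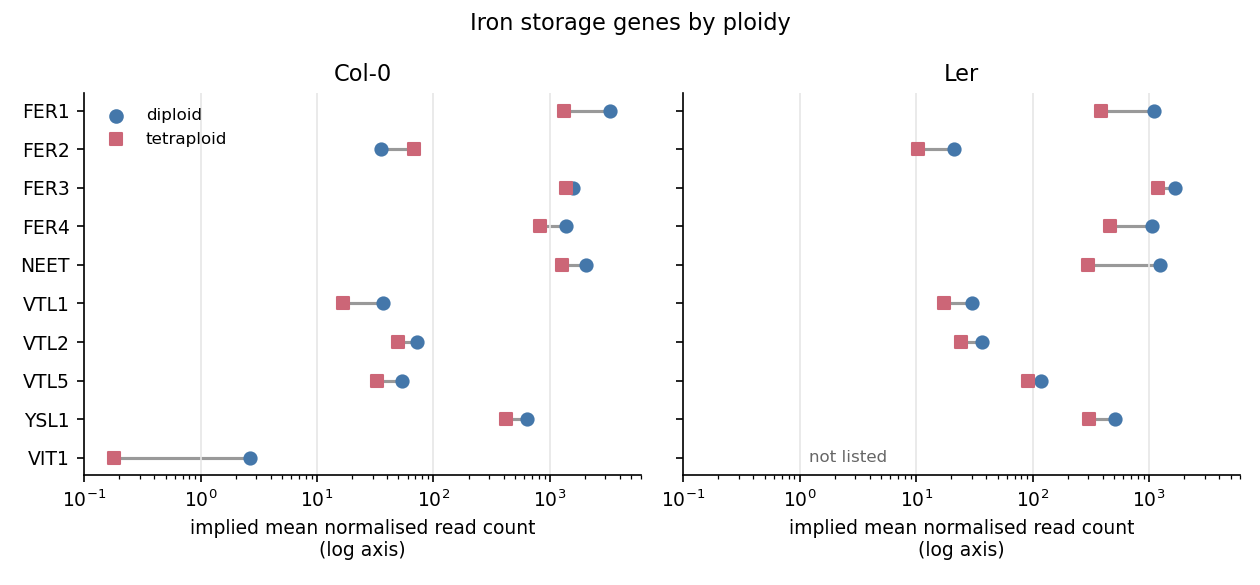
Implied mean normalised read counts (log axis) of the 10 iron storage genes in diploid (circles) and tetraploid (squares) seedlings of Col-0 (left) and Ler (right), each the mean of 2 libraries derived from the authors' mean and fold change, with no error shown. The tetraploid value lies left of the diploid one for 9 of 10 genes in Col-0 and 9 of 9 in Ler, with FER2 in Col-0 the exception.

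FER1, the leaf ferritin best known for its response to iron excess, was lower in tetraploids of both ecotypes. Its implied mean count was 3302 in diploid and 1325 in tetraploid Col-0, and 1099 in diploid and 387 in tetraploid Ler. Tetraploid seedlings thus held 40.1% of the diploid level in Col-0 (95% interval 35.4 to 45.5%) and 35.2% in Ler (29.0 to 42.8%). The authors' deposited table for Col-0 gave a log2 fold change of −1.32 ± 0.09 (DESeq2 adjusted p = 4.8e-43). For Ler the authors' deposited table gave −1.51 ± 0.14 (DESeq2 adjusted p = 8.4e-23). The Ler minus Col-0 difference was −0.19 ± 0.17, with a 95% interval of −0.52 to 0.15 (two-sided Wald test, adjusted p = 0.68).

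FER4, a ferritin found in plastids and also in mitochondria, followed the same direction. Its implied count was 1379 in diploid and 824 in tetraploid Col-0, or 59.7% of the diploid level (51.0 to 69.9%). In Ler it was 1049 and 462, or 44.0% (36.8 to 52.7%). The log2 fold changes in the authors' deposited tables were −0.74 ± 0.12 in Col-0 (DESeq2 adjusted p = 5.7e-09) and −1.18 ± 0.13 in Ler (DESeq2 adjusted p = 2.1e-16). The Ler change was larger by 0.44 ± 0.18, which did not pass adjustment over all genes (two-sided Wald test, adjusted p = 0.11, unadjusted p = 0.012).

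FER3, the other leaf ferritin, had smaller estimates than FER1 and FER4 in both tables. Its implied count was 1592 in diploid and 1361 in tetraploid Col-0, 85.5% of the diploid level (74.9 to 97.7%), and this was not called in the authors' deposited table (−0.23 ± 0.10, DESeq2 adjusted p = 0.11). In Ler it went from 1661 to 1202, 72.3% of the diploid level (62.4 to 83.8%), and was called lower in the authors' deposited table (−0.47 ± 0.11, DESeq2 adjusted p = 9.3e-04). A call in Ler and none in Col-0 does not show a difference, and the difference itself was −0.24 ± 0.15 (two-sided Wald test, adjusted p = 0.41).

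FER2, the seed ferritin, was scarce and was the member whose estimates pointed opposite ways. Its implied count was 35.6 in diploid and 68.4 in tetraploid Col-0, and 21.1 in diploid and 10.3 in tetraploid Ler. Neither change was called in the authors' deposited tables (0.94 ± 0.48 in Col-0, DESeq2 adjusted p = 0.21, and −1.03 ± 0.74 in Ler, DESeq2 adjusted p = 0.58). The difference of −1.97 ± 0.88 did not pass adjustment (two-sided Wald test, adjusted p = 0.18, unadjusted p = 0.026). Seed markers were at or near the limit of detection, and their sums differed in the same direction as the FER2 estimates. In Col-0, 3 of 7 listed seed markers were measured (CRA1, OLEO1 and OLEO2), with a summed implied count of 6.94 in diploids and 36.6 in tetraploids. In Ler 5 of 7 were measured, with 13.8 in diploids and 2.05 in tetraploids. CRB and SESA1 were not listed in either table. OLEO1 (6.02 ± 1.94) and OLEO2 (5.10 ± 1.77), oil body proteins of seeds, were called higher in Col-0 at mean counts of 5.63 and 8.26 in the authors' deposited table. The seed storage protein gene CRA1 was not called in the authors' deposited table (0.59 ± 1.16, DESeq2 adjusted p = 0.86), and no seed marker had an adjusted p in Ler. The part of seed material in the FER2 values was not tested.

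**Figure D2:**
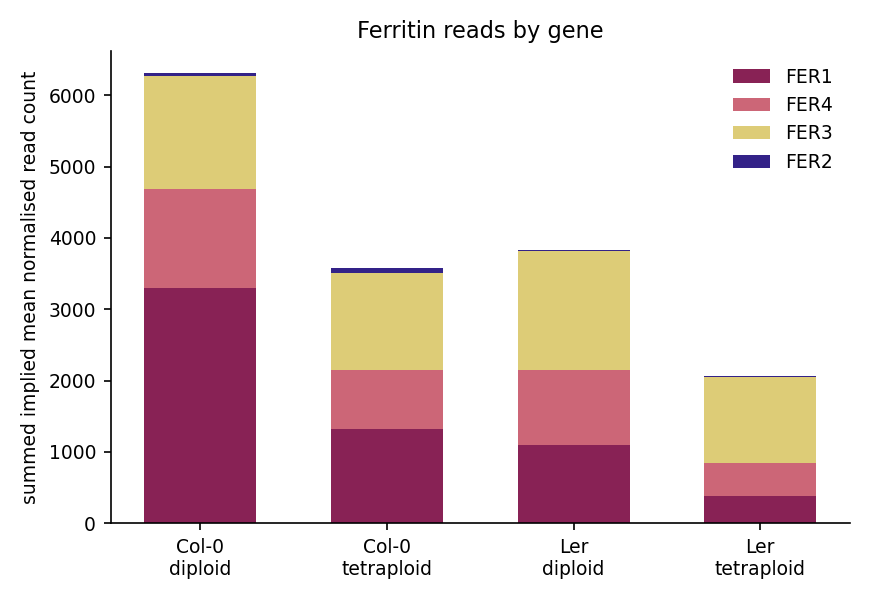
Implied mean normalised read counts of the 4 ferritin genes, stacked, in diploid and tetraploid seedlings of Col-0 and Ler, each bar the sum of 4 group means with no error shown. The summed reads are 6308 and 3579 in diploid and tetraploid Col-0, 3831 and 2061 in Ler, and the tables were normalised separately.

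Summed over the 4 genes, ferritin reads in tetraploids were 56.7% of those in diploids in Col-0 and 53.8% in Ler. These sums carry no test. The composition of the sum is seen in the stacked plot of ferritin reads. FER1 gave 52.3% of ferritin reads in diploid Col-0 and 37.0% in tetraploid Col-0, against 28.7% and 18.8% in Ler. FER3 took the larger share in tetraploids, 38.0% against 25.2% in diploids of Col-0 and 58.3% against 43.4% in Ler. FER4 kept between 21.9% and 27.4% of ferritin reads in all 4 groups. FER1 accounted for 72.4% of the net loss of ferritin reads in Col-0 and 40.3% in Ler. These are shares of reads and not of molecules, because no gene length of the authors' build was used, and how reads that match several ferritin copies were counted has no statement in the labels.

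Levels of the diploids can be set side by side per 1000000 reads of each table. On that scale FER1 stood at 148 in diploid Col-0 and 49.7 in diploid Ler. FER3 stood at 71.2 and 75.0, FER4 at 61.7 and 47.4, and NEET at 92.1 and 56.5. The tables were normalised separately and list different sets of identifiers, so no test was made between these levels. How well reads of each ecotype matched the authors' build, TAIR10, was not tested either.

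NEET, a small protein that carries an iron-sulfur cluster and takes part in iron and redox balance of plastids and mitochondria, had the largest called change of the members in Ler. Its implied count went from 1252 in diploid to 300 in tetraploid Ler, which left 23.9% of the diploid level (19.2 to 29.8%). In Col-0 it went from 2058 to 1282, or 62.3% (53.3 to 72.9%). The authors' deposited table for Ler gave −2.06 ± 0.16 (DESeq2 adjusted p = 4.7e-34), and that for Col-0 −0.68 ± 0.12 (DESeq2 adjusted p = 9.1e-08). The change in Ler was larger by 1.38 ± 0.20 on the log2 scale (95% interval of Ler minus Col-0 −1.77 to −0.99, two-sided Wald test, adjusted p = 4.1e-10). NEET was the 1 member of the 9 in both tables for which this difference passed adjustment, where 8.71% of 21361 shared identifiers did.

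YSL1, which loads iron-nicotianamine complexes in leaf veins and toward seeds, was also lower in both. Its implied count was 642 in diploid and 417 in tetraploid Col-0, and 510 and 304 in Ler. Tetraploids held 65.0% of the diploid level in Col-0 (53.4 to 79.1%) and 59.6% in Ler (47.6 to 74.6%). The log2 fold changes in the authors' deposited tables were −0.62 ± 0.14 (DESeq2 adjusted p = 2.5e-04) and −0.75 ± 0.17 (DESeq2 adjusted p = 4.2e-04), and their difference was −0.13 ± 0.22. In Col-0 the YSL1 call did not hold when statistics were scaled to their own spread over genes (adjusted p = 0.079).

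**Figure D3:**
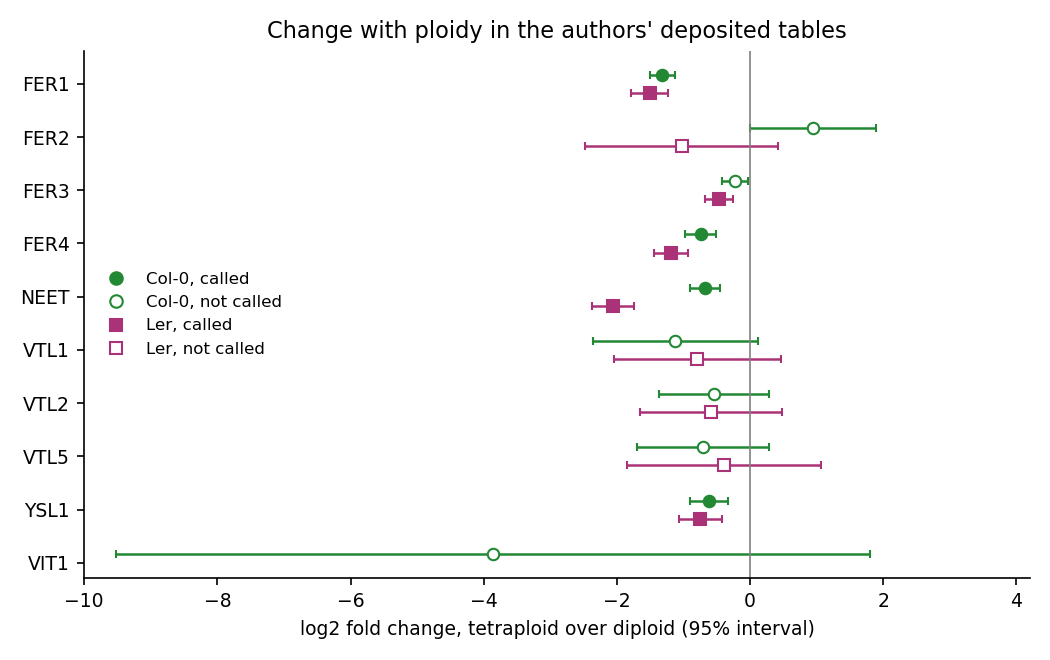
Log2 fold change of tetraploid over diploid seedlings for the 10 genes in Col-0 (circles) and Ler (squares), with 95% intervals from the authors' standard errors, filled where the authors' adjusted p was under 0.05. FER1, FER4, NEET and YSL1 are filled in both ecotypes, FER3 in Ler, and the intervals of VTL1, VTL2, VTL5, VIT1 and FER2 include 0.

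The vacuolar iron transporter-like genes were low and their changes were not resolved. VTL1, whose protein sits in the vacuolar membrane, had implied counts of 36.7 and 16.8 in diploid and tetraploid Col-0 and of 30.0 and 17.3 in Ler. VTL2 had 71.9 and 49.3 in Col-0 and 36.8 and 24.4 in Ler. VTL5 had 53.7 and 32.9 in Col-0 and 119 and 90.7 in Ler. All 6 estimates were below 0, from −1.12 ± 0.63 for VTL1 in Col-0 to −0.39 ± 0.74 for VTL5 in Ler in the authors' deposited tables, and 0 of the 6 was called by DESeq2, with 0 at an unadjusted p under 0.05. At these counts a call needed a large change. With the smallest Wald statistic called in each table, VTL1 would have needed a change of 3.21-fold in Col-0 and 3.81-fold in Ler, against 1.19-fold and 1.35-fold for FER1.

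VTL5 in Ler had the widest spread relative to counting of reads. Its standard error was 5.23 times what counting reads alone would give, while the ratio ran from 1.17 to 3.18 for the other 18 gene and table pairs. Which libraries were high or low is not given in the table.

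VIT1, which fills the vacuoles of the embryo with iron, was near the limit of detection. The authors' deposited table for Col-0 lists it at a mean count of 1.42 (−3.86 ± 2.89, DESeq2 adjusted p = 0.48). That implies 5.30 reads over the diploid libraries and under 0.5 over the tetraploid ones, and the 95% interval of its log2 fold change, −9.53 to 1.80, spans 0. No direction can be given for VIT1 at this depth.

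Across the set, 4 of 10 members were called lower in Col-0 and 0 higher, where 8.23% of all 21420 tested genes were called lower and 15.4% in either direction. In Ler 5 of 9 were called lower and 0 higher, where 1.91% of 18683 tested genes were called lower and 5.1% in either direction. FER1, FER4, NEET and YSL1 were called lower in both tables, 4 of 9 members listed in both, where 0.537% of 18240 genes tested in both were. Because these changes were known when the set was chosen, nothing is read from the counts against those shares. The median log2 fold change over members was −0.69 in Col-0 and −0.79 in Ler, beside −0.0032 and −0.0061 over all tested genes. The Ler median is the estimate of VTL1, which was not called, and the Col-0 median lies between NEET and the uncalled VTL5. The Col-0 median is the same with VIT1 set against a floor of 3 reads over the tetraploid libraries, a ratio of 1.77 that describes its counts and is no bound on its change. Of the 9 members in both tables, 8 had the same sign in both, and for 7 the Ler estimate was the lower one.

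By the authors' Wald statistic, the 5 called members stood near the bottom of the Ler table. NEET had the lowest statistic of all 23059 Ler genes, FER1 the second lowest and FER4 ranked 4 from the lowest in the authors' deposited table. YSL1 ranked 75 and FER3 102. The uncalled FER2, VTL1, VTL2 and VTL5 ranked 2649, 3118, 3730 and 7029 in Ler. In Col-0, where far more genes changed, FER1 ranked 48 of 23202, FER4 383, NEET 450, YSL1 828 and FER3 2179. Of the rest, VTL1 ranked 3050, VTL5 3975, VIT1 4141 and VTL2 4283, and FER2 ranked 20714, toward the other end. These ranks are of the same values that were known when the set was chosen.

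**Figure D4:**
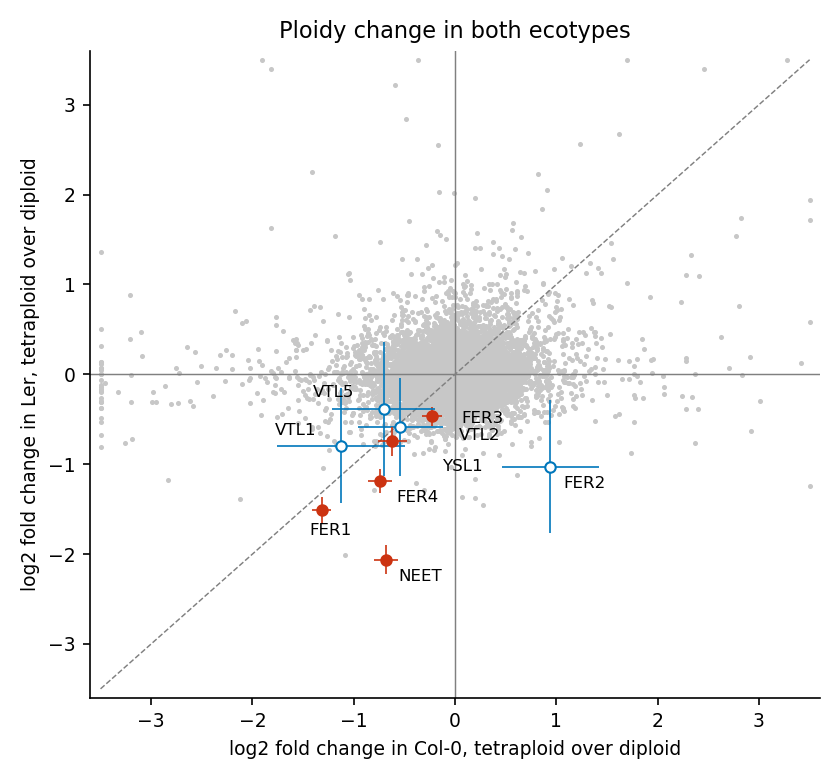
Log2 fold change of tetraploid over diploid seedlings in Ler against Col-0, drawn for genes whose mean reaches 100 in each table (grey, values past 3.5 drawn at the edge), with members at that level in filled red and lower ones in open blue, bars showing the standard error and the dashed line equal change. FER1 lies close to the dashed line while NEET lies well below it.

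Among 13323 genes whose mean count reached 100 in each table, FER4 was the fourth nearest to FER1 in its pair of changes (distance 0.66 on the log2 scale). Nearer were BBX14, a B-box zinc finger gene, at 0.47, AT3G16670 at 0.56 and AT4G13575 at 0.56, and the fifth was AT3G19680 at 0.67. The authors' deposited tables gave BBX14 as −1.31 ± 0.09 in Col-0 and −1.04 ± 0.16 in Ler. This likeness rests on 2 comparisons only.

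Gene neighbours of the members gave the local background. Of the 20 nearest tested genes on the chromosome, between 1 and 4 were called in Col-0 for each member, or 5 to 20%, beside 15.4% of all genes. In Ler the count was 0 for FER1, FER4, NEET, VTL2 and VTL5 and 1 or 2 for FER2, FER3 and YSL1. VTL1, itself uncalled, had 6, beside 5.1% of all genes. Of these called neighbours in Ler, 0 of 6 for VTL1 were lower in the tetraploid. For FER3 2 of 2 were lower, and for FER2 and YSL1 0 of 1 each.

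Regulators come next. Of 7 genes known to act on ferritin transcription or on its regulators, 3 were called higher and 1 lower in Col-0, and 1 higher in Ler, with a median log2 fold change of 0.11 and 0.02. Over all tested genes 15.4% were called in Col-0 and 5.1% in Ler. BTS, an E3 ligase that targets iron-response transcription factors, rose in both (0.38 ± 0.09 in Col-0 and 0.52 ± 0.10 in Ler in the authors' deposited tables). PYE, a repressor of ferritin genes under iron deficiency, rose in Col-0 (0.61 ± 0.14) and gave −0.03 ± 0.13 in Ler in the authors' deposited tables. BHLH121, an activator in the same network, fell in Col-0 (−1.09 ± 0.16) and gave −0.23 ± 0.20 in Ler in the authors' deposited tables. TIC, a clock-linked gene that represses FER1, rose in Col-0 (0.74 ± 0.07) and gave 0.02 ± 0.10 in Ler in the authors' deposited tables. ILR3, the partner of PYE, and PHR1 and PHL1, which link FER1 to phosphate supply, ranged from −0.06 ± 0.11 to 0.12 ± 0.19 in the authors' deposited tables and were not called.

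Other genes of vacuolar and cellular iron transport, not all of them of the vacuole, were few in these tables. Of 8 genes 5 were measured in each table, with medians of 0.19 in Col-0 and −0.09 in Ler. By DESeq2, 0 were called in Col-0 (0 at an unadjusted p under 0.05) and 1 was called higher in Ler. The share called over all genes was 15.4% in Col-0 and 5.1% in Ler. The called gene was NRAMP4, which releases iron from vacuoles, at 0.84 ± 0.11 in Ler against 0.12 ± 0.13 in Col-0 in the authors' deposited tables. The nearest to a call in Col-0 were MEB1 (0.33 ± 0.23) and MEB2 (0.82 ± 0.64) in the authors' deposited table. AT3G43630 and AT3G43660, further members of that list, were not listed in either table.

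Of the 7 other yellow stripe-like genes, 1 was called higher in Col-0 and 0 in Ler by DESeq2 (0 at an unadjusted p under 0.05 in Ler), with medians of 0.35 and 0.32. None of the 7 was called lower, where 8.23% of all genes were in Col-0 and 1.91% in Ler, so nothing is read from that count. YSL2 rose in Col-0 (0.66 ± 0.20) and gave 0.36 ± 0.28 in Ler in the authors' deposited tables. YSL3, the close partner of YSL1 in iron-nicotianamine transport, gave 0.35 ± 0.17 and 0.38 ± 0.23 in the authors' deposited tables and was not called.

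Genes that bring iron into plastids and mitochondria or build iron-sulfur clusters are set beside the share called over all genes, 15.4% in Col-0 and 5.1% in Ler. Of 8 organelle iron transport genes 1 was called lower in each table, with medians of −0.12 and −0.01. FRO7, the ferric reductase of chloroplasts, fell in Col-0 (−1.57 ± 0.11) and gave 0.27 ± 0.11 in Ler in the authors' deposited tables. IREG3 fell in Ler (−0.32 ± 0.10 in the authors' deposited table). Of 18 cluster assembly genes, 3 were called lower in Col-0, and 1 of the 17 tested in Ler, with medians of −0.10 and 0.04. These were CXIP1 (−0.44 ± 0.08), NFU4 (−0.72 ± 0.17) and ABCI7 (−0.25 ± 0.08) in Col-0 and ABCI8 (−0.57 ± 0.09) in Ler in the authors' deposited tables.

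Haem enzymes that remove hydrogen peroxide gave medians of 0.03 in Col-0 and −0.07 in Ler. Of 7 tested genes 1 was called lower in Col-0, and of 5 in Ler 1 was called in each direction. Over all genes 15.4% were called in Col-0 and 5.1% in Ler. The catalase gene CAT3 fell in Col-0 (−0.52 ± 0.07) and rose in Ler (0.69 ± 0.12) in the authors' deposited tables. The cytosolic ascorbate peroxidase gene APX1 fell in Ler (−0.62 ± 0.11) and gave 0.13 ± 0.06 in Col-0 in the authors' deposited tables.

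**Figure D5:**
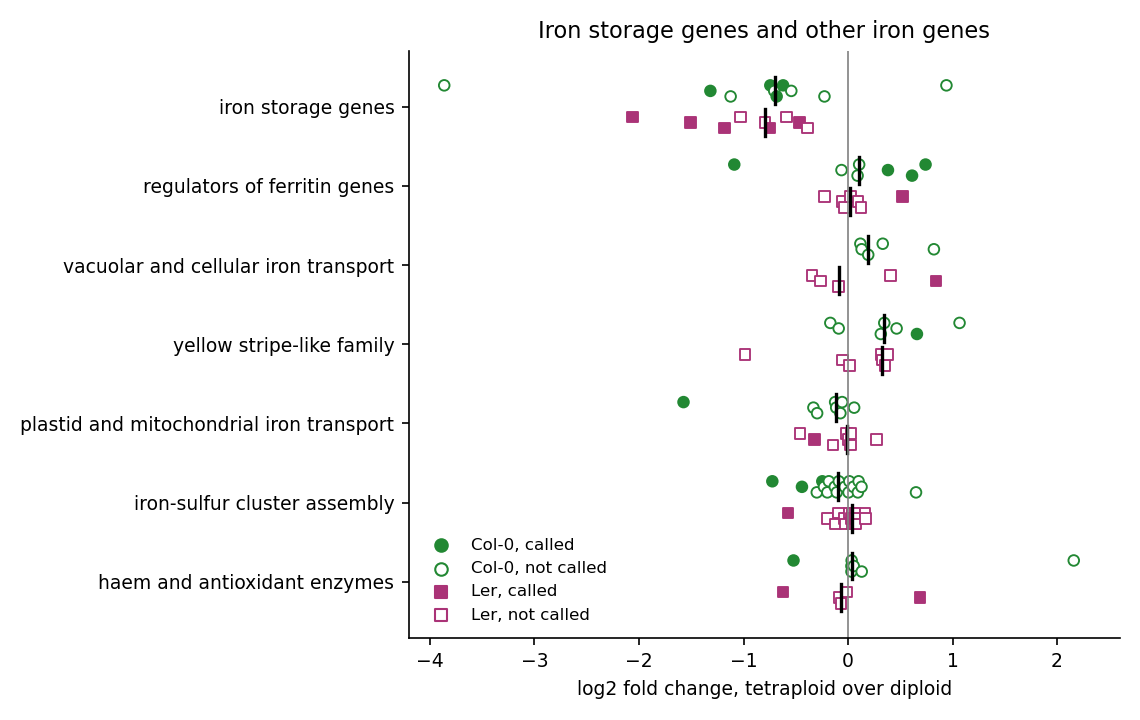
Log2 fold change of tetraploid over diploid seedlings for each tested gene of the iron storage set and of 6 other lists, in Col-0 (circles) and Ler (squares), filled where the authors' adjusted p was under 0.05, with a black bar at each median. The medians of the iron storage genes are −0.69 and −0.79, and those of the other lists lie between −0.12 and 0.35. The iron storage set was chosen with its changes known, and its Ler median is the estimate of VTL1, which was not called.

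Markers of other tissues and states are set beside these results. The root markers summed to 3609 in diploid and 2506 in tetraploid Col-0 and to 2567 and 3427 in Ler, and PYK10 made up most of each sum. The median change of the tested root markers was 1.45 over 5 genes in Col-0. In Ler it was 0.91 over 2 genes, PYK10 and FRO2. By DESeq2, 1 was called higher and 1 lower in Col-0, and 1 higher in Ler. The Col-0 median is the estimate of CASP1, which was not called in the authors' deposited table (1.45 ± 0.85, DESeq2 adjusted p = 0.31). PYK10 fell in Col-0 (−0.61 ± 0.09) and gave 0.36 ± 0.27 in Ler in the authors' deposited tables. FRO2, the root iron reductase that responds to iron itself, rose in both (1.54 ± 0.31 and 1.46 ± 0.25 in the authors' deposited tables). Senescence markers, of interest because FER1 responds to leaf ageing, summed to 1589 and 798 in Col-0 and to 306 and 405 in Ler. SAG13 was the larger part of the Col-0 sum (mean count 765) and SGR1 of the Ler sum (mean count 302) in the authors' deposited tables. By DESeq2, 0 of the 4 tested in each table was called, with 0 in Col-0 and 2 in Ler at an unadjusted p under 0.05. The nearest to a call were SAG13 (−1.46 ± 0.75 in Col-0 and 3.05 ± 1.15 in Ler) and WRKY53 (−0.66 ± 0.38 and 1.23 ± 0.52) in the authors' deposited tables. Of 4 leaf markers 1 was called lower in each table, LHCB1.3 in Col-0 (−0.23 ± 0.05) and LHCA1 in Ler (−0.28 ± 0.07) in the authors' deposited tables. The shares over all tested genes were 15.4% called in Col-0 and 5.1% in Ler, with 8.23% and 1.91% called lower. The part of these tissues and states in the results was not tested.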

How the data were processed

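RNA-seq libraries from diploid and tetraploid seedlings were processed by the authors. Tools named in the submitters' processing notes are HISAT2, Subread and DESeq2, and the build is TAIR10, without versions or settings. Per the file headers, the deposited tables hold a mean normalised count (a signal averaged over 4 libraries), a log2 fold change with its standard error on the log2 scale, a Wald statistic (a score) and p-values, raw and adjusted. The statistic equals fold change over error, so folds are not shrunken. Strand use and the treatment of reads matching several genes are not given in the sources used here.

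A gene was called where the authors' adjusted p, over all genes of a table, was under 0.05. Counts per ploidy were implied as the pair of means with the deposited average and ratio, and 95% intervals are normal intervals on the log2 scale. The smallest absolute Wald statistic called was 2.67 in Col-0 and 3.02 in Ler. Size factors come from the steps of the lowest means. The Ler minus Col-0 difference was given a two-sided Wald test, with Benjamini-Hochberg adjustment over 21361 shared identifiers. This test was first run on simulated estimates with normal errors of the deposited size. That run cannot show whether the deposited standard errors are large enough for these data. Identifiers were matched to a RefSeq gene table of TAIR10.1, used for names and gene order only (98.7% of Col-0 and 98.5% of Ler identifiers matched). Named genes were the 10 members, up to 4 called genes per direction of each list or else the 2 with the smallest p, and the 5 genes nearest to FER1. Other values of these genes are given beside them. The members and lists were chosen with earlier results of these data known. Alternatives changed the adjustment, the filter on low means and the null. Analyses used Python 3.11.15, pandas 2.3.3 and SciPy 1.17.1.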

Additional observations from a re-analysis of the deposited data

Results flagged for a closer look

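The change of NEET differed between ecotypes by a test of the difference itself, with a Ler minus Col-0 value of −1.38 ± 0.20 on the log2 scale (two-sided Wald test over the authors' estimates, adjusted p = 4.1e-10). In the authors' deposited tables it was lower in tetraploids of both ecotypes, by −0.68 ± 0.12 in Col-0 and −2.06 ± 0.16 in Ler. The adjusted p was 3.3e-10 over genes whose mean reached 10 in each table and 1.1e-04 with statistics scaled to their own spread over genes. NEET was chosen with its changes in both tables known, so these p-values describe it and are not independent evidence. Each group has 2 libraries, and whether they came from separately grown plants is not stated.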

How the results depend on the processing

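No paired analysis was possible because the tables hold no values per library, and no replicate could be left out for the same reason. Without a filter on low means, with a mean count of at least 10, and after recentring, 4 members were called in Col-0 and 5 in Ler, as reported. With statistics scaled to their own median and spread over genes (a scale of 1.54 in Col-0 and 1.24 in Ler), 3 were called in Col-0, where YSL1 had an adjusted p of 0.079, and 5 in Ler. Under that scaling the calls over all genes were 1249 in place of 3290 for Col-0, 401 in place of 952 for Ler and 629 in place of 1860 for the ecotype difference, with NEET called each time. Of the values of single members under these alternatives, 92 kept direction and side of the threshold and 1, YSL1 in Col-0, did not. Levels per length, protein identity and promoter motifs were not run, since no sequence or length of the authors' build was used here. Counts were low and intervals wide for FER2, VTL1, VTL2 and VIT1 in the tables that list them and for VTL5 in Col-0. In Ler the standard error of VTL5 was 5.23 times that of counting reads alone, the largest such ratio of the members.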
